A study of Mus musculus with 9 samples.

Results

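The TGF-beta genes described here are 9 of the 31167 genes in a table of RNA expression from mouse kidney tubule cells. They are the ligands Tgfb1, Tgfb2 and Tgfb3, the latent-complex protein Ltbp1, the activator Thbs1, the receptors Tgfbr1 and Tgfbr2, the signal carrier Smad3 and the inhibitor Smad7. Their rows were taken by gene symbol alone, and each symbol matched a single row. The genes themselves were chosen with earlier results of these data known. All 9 were tested, since each averaged 0.5 FPKM or more across the 9 libraries. FPKM divides the fragments of a gene by its exon length and by the size of the library, so levels of different genes can be set side by side.

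RNA was sequenced from primary renal tubular epithelial cells of C57BL/6 mice in 3 groups of 3 libraries. Sham cells are the negative control. H/R cells were kept without glucose at 1.0% oxygen for 6 h and then given complete medium with normal oxygen for 18 h, a culture model of ischemia and reperfusion. EGR1OV cells were transfected with a plasmid in which the transcription factor Egr1 is expressed from the cytomegalovirus (CMV) promoter, which is active in most cell types. No group with an empty plasmid was among those compared. In the study's description Sham cells were left untreated. The sources used here do not give the time from transfection to collection of the EGR1OV cells. The paper's methods describe transfection as done before H/R, while its description of these groups lists H/R and the plasmid as separate treatments. It does not say outright whether EGR1OV cells also went through H/R. Nothing states that replicates came from separate mice or cultures, so the p-values measure only the spread between these libraries.

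TGF-beta is secreted as a latent complex. Its prodomain keeps the ligand inactive, latent TGF-beta binding proteins tether the complex to the matrix, and integrins, proteases or thrombospondin release the active ligand. The ligand binds the type II receptor, which phosphorylates the type I receptor, and this in turn phosphorylates Smad2 and Smad3, which enter the nucleus with Smad4. Among the genes they induce is Smad7, which blocks the type I receptor and so closes a feedback loop. In injured kidney the pathway is known for driving matrix production and fibrosis.

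Depth differed little between libraries, from 16183617 to 18384022 recovered reads, a ratio of 1.14. Egr1 itself had a mean of 6.40 ± 0.443 FPKM in Sham, 7.88 ± 0.599 after H/R and 42.6 ± 2.84 with EGR1OV (SD over n = 3). The log2 change in EGR1OV was +2.56 (limma adjusted p 2.19e-09), in the direction of the label, and the table does not separate plasmid from endogenous transcripts. Epithelial markers were present, with Krt8 at a mean of 1014 FPKM, Cdh1 at 86.2 and Pax8 at 13.1 in Sham. The proximal tubule transporter gene Slc34a1 was at or near 0 and the thick limb gene Umod was listed at 0 in all libraries. Gm23935 was above 10000 FPKM in 1 Sham library (replicate 3) and 2 H/R libraries (replicates 2 and 3), and at 1494 to 9378 FPKM in the others. Values without these 3 libraries come from a fit that keeps a single H/R library, assumed to vary like the others. In that fit 54 genes were called in H/R against Sham, against 594 with all libraries, and the H/R values of the TGF-beta genes are given with and without them.

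Macrophage markers were also present and moved with the groups. Their summed level was between 155 and 161 FPKM in Sham, between 131 and 141 after H/R and between 28.1 and 33.3 in EGR1OV. Of 10 tested, all 10 were called lower in EGR1OV and 2 in H/R, against 6.51% and 2.65% of all genes tested. The 2 in H/R were Lyz2 (-0.29) and Adgre1 (-0.36). Without the libraries high in Gm23935 their H/R values were -0.26 and -0.47, from the fit with a single H/R library. None of the macrophage marker genes was at 0 in all libraries. The summed tubule markers were at 1879 to 1918, 1736 to 1815 and 1213 to 1318 FPKM in the same order of groups. The keratin genes Krt8 and Krt18, separated out after their values were seen, made up most of this sum, with means of 1698, 1547 and 1030 FPKM. The sum of the other tubule markers went the other way, with a mean of 205 ± 1.49 FPKM in Sham, 230 ± 4.84 after H/R and 237 ± 5.83 in EGR1OV (SD over n = 3). Most of this sum was Epcam and Cdh1, both epithelial adhesion genes. In EGR1OV Epcam was called higher (from 76.2 to 100.4 FPKM), and Cdh1 went from 86.2 to 101.5 FPKM, below the fold threshold. The uptake receptor gene Lrp2 and the water channel gene Aqp1 were called lower (-1.05 and -0.75), and Cdh16 was at -0.30, not called. Of 8 tubule markers tested, 1 was called higher and 4 lower in EGR1OV (median log2 change -0.51), against 9.87% and 6.51% of all genes. In H/R 1 was called higher and 0 lower, against 1.6% and 2.65% of all genes. The H/R call was Epcam (+0.33), which was at +0.30 without the libraries high in Gm23935. Endothelial markers summed to 9.32 to 9.75, 9.497 to 9.895 and 6.55 to 7.20 FPKM, and fibroblast markers to 5.12 to 5.48, 3.93 to 4.89 and 4.19 to 4.67 FPKM. The part of these shifts in the changes of the TGF-beta genes was not tested. In RNA from whole cultures, fewer cells of a type and less RNA per cell cannot be told apart.

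Promoter windows were available for 6 of the 9 genes (8 windows from RefSeq, GRCm38.p6), and none for Tgfb3, Smad7 or Thbs1. The 8 windows were searched for motifs of Egr1 and of the Smads because EGR1OV cells carry excess Egr1. The windows hold the 250 bases before an annotated start site. The Egr1 motif was searched as GCGTGGGCG and as GCGGGGGCG, and the Smad motifs as CAGACA and as the palindrome GTCTAGAC, each on both strands. No match of one motif overlapped a match of another in these windows. The windows below are those of Tgfb1 and Tgfbr1, the 2 that held an Egr1 motif, and of Tgfb2, a ligand whose level moved the other way from Tgfb1. They are given 5′ to 3′ on the strand of the gene, with the matched motif in capitals: Tgfb1 at chr7:25686752-25687001 on the plus strand, Tgfbr1 at chr4:47352972-47353221 on the plus strand and Tgfb2 at chr1:186705990-186706239 on the minus strand.
Tgfb1: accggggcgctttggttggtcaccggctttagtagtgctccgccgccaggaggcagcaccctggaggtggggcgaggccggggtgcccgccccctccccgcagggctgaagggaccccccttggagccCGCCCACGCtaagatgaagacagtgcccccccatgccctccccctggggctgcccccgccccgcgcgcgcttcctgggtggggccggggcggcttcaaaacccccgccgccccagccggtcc
Tgfbr1: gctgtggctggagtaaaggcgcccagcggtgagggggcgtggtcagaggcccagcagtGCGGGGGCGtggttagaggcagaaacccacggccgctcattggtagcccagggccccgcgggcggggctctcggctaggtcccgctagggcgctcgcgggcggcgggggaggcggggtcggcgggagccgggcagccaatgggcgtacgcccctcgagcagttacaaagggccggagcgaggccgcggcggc
Tgfb2: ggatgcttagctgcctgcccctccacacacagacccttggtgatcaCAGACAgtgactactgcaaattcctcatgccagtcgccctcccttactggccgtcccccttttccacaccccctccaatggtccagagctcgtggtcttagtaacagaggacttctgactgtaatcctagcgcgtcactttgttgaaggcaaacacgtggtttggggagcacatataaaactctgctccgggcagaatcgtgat

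In the Tgfb1 window, GCGTGGGCG lay on the opposite strand, so that the capitals above are its reverse complement, 122 to 114 bases before the start site. In the Tgfbr1 window, GCGGGGGCG lay 192 to 184 bases before the start. The level of Tgfbr1 was lower in EGR1OV than in Sham (-0.25), below the fold threshold. The Tgfb2 window held neither Egr1 form and a single CAGACA, 204 to 199 bases before the start. CAGACA was also found in the second windows of Tgfbr1 and Ltbp1, and the windows of Smad3 and Tgfbr2 and the first window of Ltbp1 held none of these letters. The 3 windows also differed in composition, with 75.2% G and C for Tgfb1, 74.8% for Tgfbr1 and 53.6% for Tgfb2. Of 32851 promoter windows of the same length, 0.536% held GCGTGGGCG, 2.57% held GCGGGGGCG and 3.06% held either. CAGACA was in 17.1% and GTCTAGAC in 0.167%. These matches describe the sequence and are not measured binding sites, and a link to the changes in level was not tested.

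In EGR1OV cells the TGF-beta ligands moved in opposite directions. Tgfb1 rose by 0.40 on the log2(FPKM + 1) scale, while Tgfb2 fell by 0.57 and Tgfb3 by 0.84, and the activator Thbs1 fell by 0.69. In H/R cells Tgfb1 and Thbs1 each rose by 0.27. A gene was called where the limma p, adjusted over all 13985 genes tested, was under 0.05 and the change at least 1.3-fold for EGR1OV or 1.2-fold for H/R against Sham. By that rule 4 of the 9 genes were called in EGR1OV against Sham, 1 higher and 3 lower. Among all genes tested 16.4% were called in that comparison, 9.87% higher and 6.51% lower. In H/R against Sham 2 of the 9 were called, both higher, against 4.25% of all genes, 1.6% higher and 2.65% lower. In EGR1OV against H/R, with the 1.3-fold threshold, 3 of the 9 were called, all of them lower, against 18.9% of all genes, 11.9% higher and 6.94% lower. The 2 comparisons with Sham share the Sham libraries.

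The direction of calls over all genes depended on scaling. In EGR1OV against Sham 60.3% of calls were higher as deposited, 54.9% under median-ratio scaling and 45.9% under quantile normalization. In H/R against Sham these shares were 37.7%, 58.2% and 56.5%, and in EGR1OV against H/R 63.2%, 51.0% and 42.5%. The median log2 change of all genes was 0.02, -0.03 and 0.05 in the 3 comparisons. Over the 9 TGF-beta genes the medians were -0.07, 0.12 and -0.19.

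**Figure D1:**
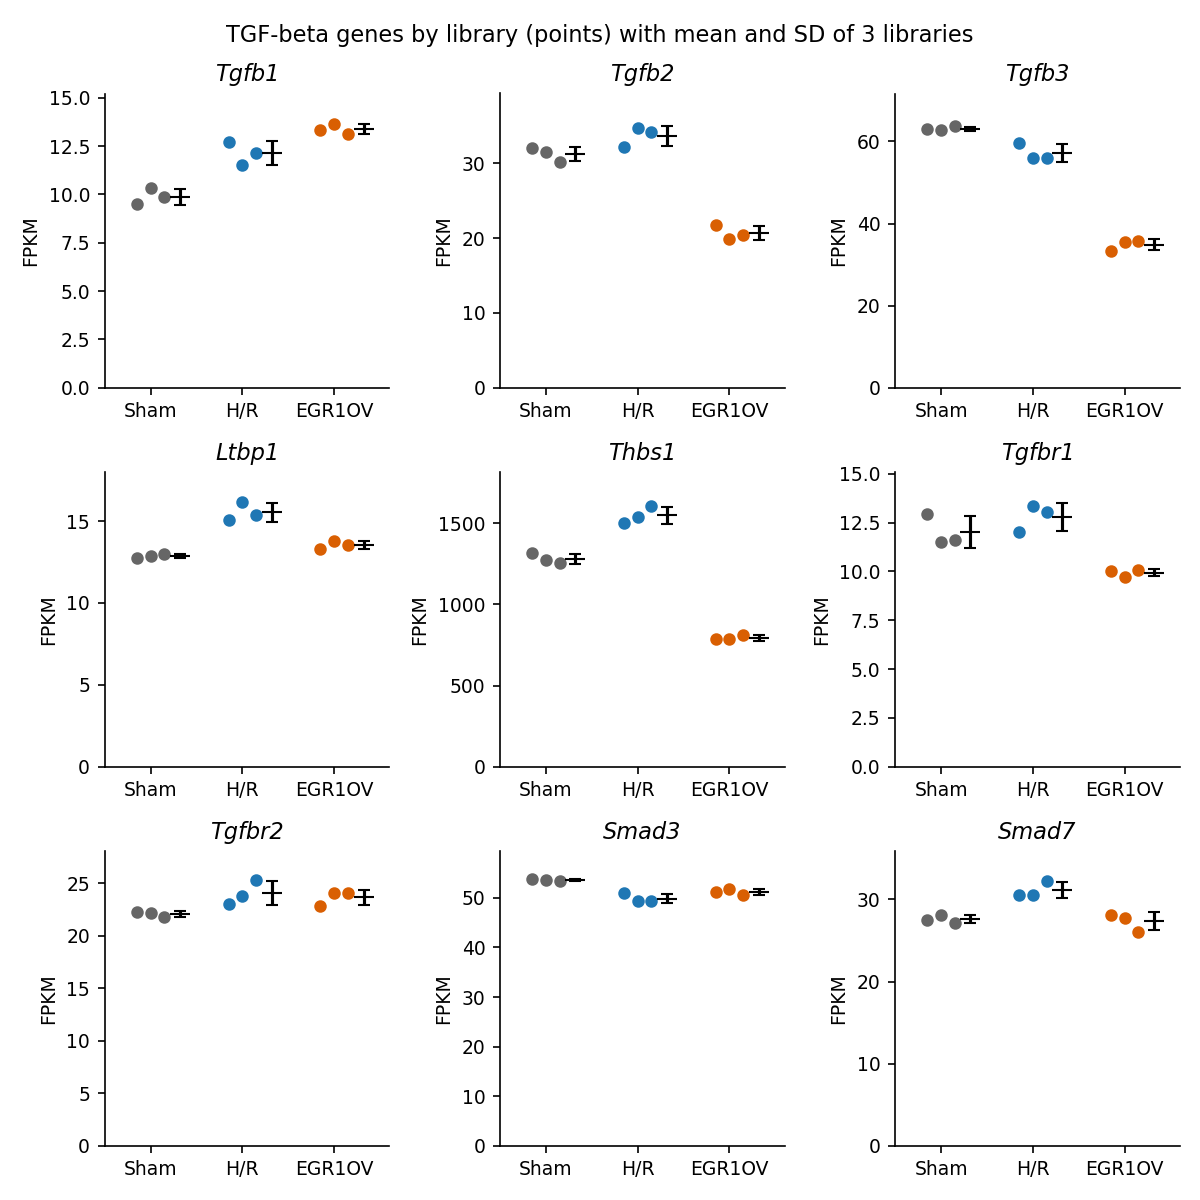
Expression of the 9 TGF-beta genes in FPKM (vertical axes, each starting at 0) by group. Points are the 3 libraries of each group, and the bar beside them gives the mean and SD. The EGR1OV libraries lie below all others for Tgfb2 (19.9 to 21.7), Tgfb3 (33.3 to 35.7), Thbs1 (784 to 814) and Tgfbr1 (9.74 to 10.1), and above all others for Tgfb1 (13.1 to 13.6).

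Tgfb1, the isoform best known for kidney fibrosis, was the least abundant of the ligands. The gene (ENSMUSG00000002603) lies on chromosome 7 from 25687002 to 25705077 on the plus strand, in the coordinates of the table, which for all 9 genes equal those of GENCODE M21 (GRCm38). Its level was 9.48, 10.3 and 9.86 FPKM in the Sham libraries, 12.7, 11.5 and 12.2 after H/R and 13.4, 13.6 and 13.1 in EGR1OV. These values rest on 786 to 1123 reads per library, and those of Tgfb2, Tgfb3, Tgfbr1, Tgfbr2, Smad3 and Smad7 on 1040 to 5176. Every H/R and EGR1OV library was above every Sham library, and every EGR1OV library was above every H/R library. The log2 change in EGR1OV was +0.40 (SE 0.043, 95% interval 0.30 to 0.50, limma adjusted p 6.0e-05), a ratio of means of 1.35. The change in H/R was +0.27 (0.17 to 0.37, limma adjusted p 0.00595), a ratio of 1.23. EGR1OV and H/R differed by 0.13 (0.033 to 0.23, limma adjusted p 0.031), below the fold threshold, and by 0.07 without the libraries high in Gm23935 (limma adjusted p 0.45).

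The size of the Tgfb1 changes lay near the thresholds. In EGR1OV the change was +0.37 after median-ratio scaling, +0.30 after quantile normalization and +0.37 without Sham replicate 1, each below 1.3-fold with an adjusted p of at most 0.000489. In H/R it was +0.24 without Sham replicate 1 and +0.24 without H/R replicate 1, each below 1.2-fold. Without the 3 libraries high in Gm23935 it was +0.34 with a limma adjusted p of 0.114.

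Tgfb2, the isoform whose prodomain lacks the integrin-binding RGD site, was lower in EGR1OV. The gene (ENSMUSG00000039239) lies on chromosome 1 from 186622792 to 186705989 on the minus strand. Its level was 32.01, 31.46 and 30.19 FPKM in Sham, 32.2, 34.7 and 34.1 after H/R and 21.7, 19.9 and 20.5 in EGR1OV. The EGR1OV libraries lay well below the 6 others, and the lowest H/R library was just above the highest Sham library. In EGR1OV Tgfb2 fell by 0.57 (SE 0.041, 95% interval -0.66 to -0.48, limma adjusted p 3.9e-06), a ratio of means of 0.663. The H/R value was +0.10 (0.012 to 0.20, limma adjusted p 0.134), which was not called, and without the libraries high in Gm23935 it was +0.02 (limma adjusted p 0.91). EGR1OV was below H/R by -0.68 (-0.77 to -0.58, limma adjusted p 1.1e-06).

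Tgfb3 was the most abundant ligand and had the largest fall among the 9 genes in EGR1OV against Sham. The gene (ENSMUSG00000021253) lies on chromosome 12 from 86056745 to 86079041 on the minus strand. Its level was 63.1, 62.7 and 63.7 FPKM in Sham, 59.7, 55.9 and 56.0 after H/R and 33.3, 35.5 and 35.7 in EGR1OV. The 3 groups did not overlap, with Sham highest and EGR1OV lowest. In EGR1OV Tgfb3 fell by 0.84 (SE 0.035, 95% interval -0.92 to -0.76, limma adjusted p 8.5e-08), a ratio of means of 0.551. The H/R value was -0.14 (-0.22 to -0.060, limma adjusted p 0.0358), below the 1.2-fold threshold, and without the libraries high in Gm23935 it was -0.07 (limma adjusted p 0.559). EGR1OV was below H/R by -0.70 (-0.78 to -0.62, limma adjusted p 3.0e-07). Tgfb2 and Tgfb3 were called in EGR1OV under all 20 settings run, the reported one included, with log2 changes of -0.66 to -0.55 and of -0.92 to -0.81. Some of these settings cannot move the log2 change.

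Some exon bases of these ligands lie under genes on the other strand, and the counting is not stated to use strand. For Tgfb2 this is 2.14% of exon bases (Gm29491). For Tgfb3 it is 4.82% (Gm37804) and 7.6% (Gm48008). The overlapping genes were at no more than 0.839 FPKM in any library.

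The sum of the ligand transcripts was lower in EGR1OV, and Tgfb1 made up more of it. Summed, the 3 ligands stood between 104 and 105 FPKM in Sham, between 102 and 105 after H/R and between 68.3 and 69.3 in EGR1OV. The sum overlapped between Sham and H/R and was lower in each EGR1OV library than in any other. Tgfb1 made up 9.48% ± 0.40 of it in Sham, 11.8% ± 0.452 after H/R and 19.4% ± 0.405 with EGR1OV (SD over n = 3). The share of Tgfb3 was 60.6% ± 0.715, 55.5% ± 1.35 and 50.5% ± 1.58. The share of Tgfb2 was 29.9% ± 0.767, 32.7% ± 1.72 and 30.0% ± 1.51, and the EGR1OV libraries overlapped both other groups. These are shares of transcript and give no measure of secreted or active protein.

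**Figure D2:**
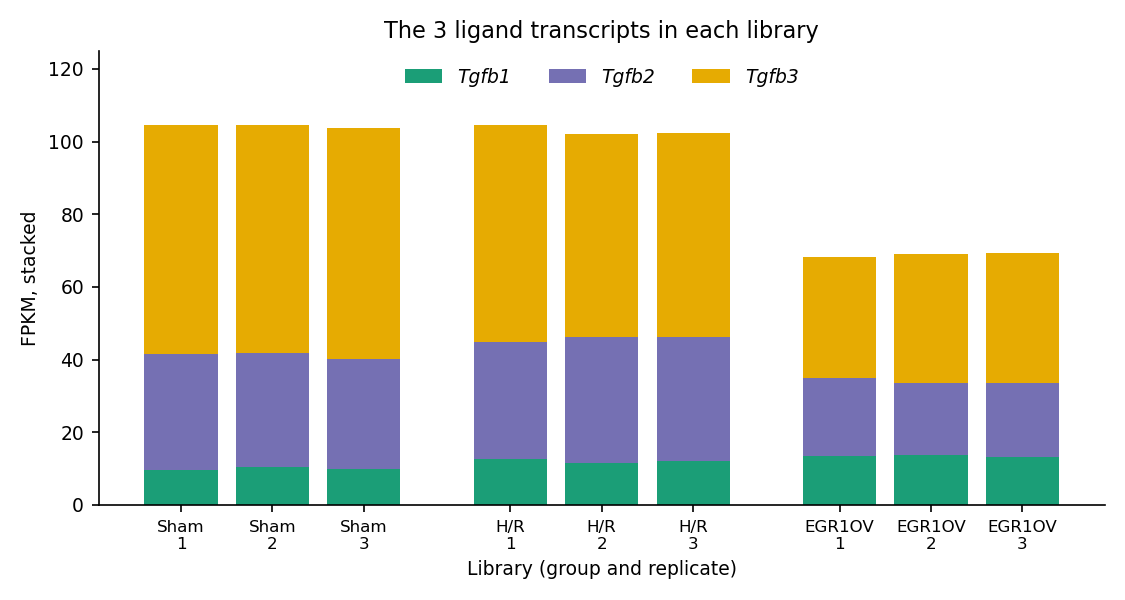
Stacked FPKM of the 3 ligand genes (vertical axis, from 0) in each of the 9 libraries (horizontal axis, by group and replicate). The stack is between 104 and 105 FPKM high in Sham, between 102 and 105 after H/R and between 68.3 and 69.3 in EGR1OV, while the Tgfb1 segment at the bottom is tallest in EGR1OV.

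Ltbp1 encodes a latent TGF-beta binding protein, which holds the latent ligand in the matrix. The gene (ENSMUSG00000001870) lies on chromosome 17 from 75005568 to 75392512 on the plus strand. Its level was 12.7, 12.9 and 13.0 FPKM in Sham, 15.05, 16.16 and 15.39 after H/R and 13.3, 13.8 and 13.5 in EGR1OV. The H/R libraries were the highest, and the EGR1OV libraries lay between, without overlap. The H/R change was +0.25 (SE 0.033, 95% interval 0.18 to 0.33, limma adjusted p 0.00247), just under the 1.2-fold threshold on the log scale. It passed the threshold with a pseudocount of 0.1 (+0.27), under median-ratio scaling (+0.29) and under quantile normalization (+0.27). It also passed with voom on recovered reads (+0.27) and without H/R replicate 1 (+0.28). Without the libraries high in Gm23935 it was +0.22 and no longer past the test (limma adjusted p 0.15). The EGR1OV value was +0.07 (-0.0064 to 0.14, limma adjusted p 0.123), and it turned to -0.04 after quantile normalization. Against H/R it was -0.19 (-0.26 to -0.11, limma adjusted p 0.00128), below the fold threshold, and -0.14 without the libraries high in Gm23935 (limma adjusted p 0.0628).

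Thbs1 encodes thrombospondin 1, a secreted protein that can release TGF-beta from its latent complex. It was by far the most abundant of the 9 genes, ranking 15 by mean FPKM among all genes in Sham, 11 after H/R and 26 in EGR1OV. The gene (ENSMUSG00000040152) lies on chromosome 2 from 118111876 to 118127133 on the plus strand. Its level was 1316, 1273 and 1256 FPKM in Sham, 1504, 1537 and 1607 after H/R and 784, 785 and 814 in EGR1OV. These values rest on 77931 to 173090 reads. The groups were separate, with H/R highest, Sham between and EGR1OV lowest. In EGR1OV Thbs1 fell by 0.69 (SE 0.032, 95% interval -0.76 to -0.62, limma adjusted p 1.8e-07), a ratio of means of 0.620. In H/R it rose by 0.27 (0.20 to 0.35, limma adjusted p 0.00167), a ratio of 1.21. EGR1OV was below H/R by -0.96 (-1.04 to -0.89, limma adjusted p 1.5e-08), a ratio of 0.513.

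The fall of Thbs1 in EGR1OV was called under all 20 settings, from -0.72 to -0.43, though some of them cannot move the log2 change. The rise in H/R lay at the threshold. It was +0.23 after quantile normalization, +0.26 without Sham replicate 3 and +0.25 without H/R replicate 3, each below 1.2-fold. Without the libraries high in Gm23935 it was +0.22 with a limma adjusted p of 0.12, so that neither call of the H/R comparison was kept there. An overlap of 3.42% of Thbs1 exon bases with Gm29233 on the other strand was also found, and Gm29233 was not analysed here.

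Among 20 other genes of the latent complex and its activation, 17 were tested. In EGR1OV 4 were higher and 2 lower (median log2 change 0.02), against 9.87% and 6.51% of all genes tested. In H/R 1 was higher and none lower, with a median of 0.03, against 1.6% and 2.65% of all genes. The highest changes in EGR1OV were in Lrrc32, which encodes the surface anchor GARP for latent TGF-beta (+0.92, from 12.3 ± 0.306 to 24.3 ± 1.64 FPKM), in the protease gene Mmp9 (+0.61, from 54.1 to 83.4) and in the integrin subunit gene Itgb5 (+0.60, from 54.9 to 84.1). The 2 called falls, named although the rule for named genes did not take them, were in Fbn1, the microfibril protein fibrillin 1 (-0.55, from 8.85 ± 0.184 to 5.72 ± 0.0609 FPKM), and in Ltbp2, a relative of Ltbp1 (-0.51, from 52.7 ± 1.66 to 36.8 ± 1.65 FPKM). Ltbp3, another latent TGF-beta binding protein, went from 56.8 ± 1.47 to 70.5 ± 3.87 FPKM (+0.31, limma adjusted p 0.000158), below the fold threshold. Ltbp4, of the same family, was low, at 1.36 ± 0.0592 FPKM in Sham and 0.899 ± 0.0637 in EGR1OV (-0.31, limma adjusted p 0.00296). This was also below the threshold on the log2(FPKM + 1) scale, though the ratio of means was 0.663. In H/R Itgav, the shared alpha subunit of the integrins that activate TGF-beta, rose by 0.37, from 57.6 ± 0.854 to 75.0 ± 4.21 FPKM, and without the libraries high in Gm23935 the value was +0.28 (limma adjusted p 0.103). In EGR1OV it was at 57.2 ± 1.81 FPKM (-0.01, limma adjusted p 0.87).

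Neither receptor was called in any of the 3 comparisons. Tgfbr1, the type I receptor kinase (ENSMUSG00000007613), lies on chromosome 4 from 47353222 to 47414931 on the plus strand. Its level was 12.9, 11.5 and 11.6 FPKM in Sham, 12.0, 13.4 and 13.0 after H/R and 10.03, 9.74 and 10.06 in EGR1OV. Sham and H/R overlapped, and all EGR1OV libraries were below them. The EGR1OV value was -0.25 (SE 0.052, 95% interval -0.37 to -0.13, limma adjusted p 0.00397), below the 1.3-fold threshold, so it was not called. The H/R value was +0.09 (-0.032 to 0.20, limma adjusted p 0.324), and -0.02 without the libraries high in Gm23935 (limma adjusted p 0.927). Between EGR1OV and H/R the difference was -0.33 (-0.45 to -0.22, limma adjusted p 0.000596), also below the threshold, and it passed after median-ratio scaling (-0.40) and quantile normalization (-0.46).

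Tgfbr2, the type II receptor that binds the ligand first (ENSMUSG00000032440), lies on chromosome 9 from 116084293 to 116175360 on the minus strand. Its level was 22.2, 22.2 and 21.7 FPKM in Sham, 23.0, 23.7 and 25.3 after H/R and 22.8, 24.1 and 24.1 in EGR1OV. Both treated groups lay just above Sham and overlapped each other. The EGR1OV value was +0.10 (0.0097 to 0.18, limma adjusted p 0.0673) and the H/R value +0.12 (0.031 to 0.20, limma adjusted p 0.0804), and neither passed the test. Without the libraries high in Gm23935 the H/R value was +0.05 (limma adjusted p 0.685) and EGR1OV and H/R differed by 0.04 (limma adjusted p 0.618). With all libraries EGR1OV and H/R differed by -0.02 (-0.11 to 0.065, limma adjusted p 0.673). The ratio of Tgfbr2 to Tgfbr1 was 1.84 ± 0.11 in Sham, 1.88 ± 0.0904 after H/R and 2.38 ± 0.10 with EGR1OV (SD over n = 3). Each EGR1OV library had a higher ratio than any other library.

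Of 8 co-receptors and receptor regulators, 7 were tested. In EGR1OV 1 was higher and 1 lower, against 9.87% and 6.51% of all genes tested. Tgfbr3, which encodes betaglycan, a co-receptor that presents Tgfb2 to the type II receptor, rose by 0.89 from 0.646 ± 0.0288 to 2.06 ± 0.105 FPKM. Dab2, an adaptor protein of endocytosis, fell by 0.58 from 11.3 ± 0.53 to 7.205 ± 0.30 FPKM. None of the 7 was called in H/R, against 4.25% of all genes, and the limma test left 0 with an adjusted p under 0.05. The medians were -0.04 and 0.01.

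Smad3 and Smad7 were not called in any of the 3 comparisons. Smad3, the DNA-binding signal carrier (ENSMUSG00000032402), lies on chromosome 9 from 63646767 to 63757994 on the minus strand. Its level was 53.7, 53.6 and 53.5 FPKM in Sham, 50.9, 49.4 and 49.3 after H/R and 51.1, 51.8 and 50.5 in EGR1OV. The Sham libraries were highest, and the treated groups overlapped each other. The EGR1OV value was -0.07 (SE 0.023, 95% interval -0.12 to -0.014, limma adjusted p 0.0431) and the H/R value -0.10 (-0.15 to -0.050, limma adjusted p 0.0242), both below the fold thresholds. Without the libraries high in Gm23935 these were -0.07 (limma adjusted p 0.115) and -0.07 (limma adjusted p 0.419). EGR1OV and H/R differed by 0.04 (-0.016 to 0.089, limma adjusted p 0.223), and by -0.03 under either other scaling.

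Smad7, the inhibitor induced by the pathway (ENSMUSG00000025880), lies on chromosome 18 from 75367529 to 75395935 on the plus strand. Its level was 27.5, 28.2 and 27.2 FPKM in Sham, 30.6, 30.5 and 32.3 after H/R and 28.1, 27.8 and 26.1 in EGR1OV. The H/R libraries were above all others, and Sham and EGR1OV overlapped. The H/R value was +0.17 (SE 0.036, 95% interval 0.086 to 0.25, limma adjusted p 0.0201), below the 1.2-fold threshold, and +0.13 without the libraries high in Gm23935 (limma adjusted p 0.344). The EGR1OV value was -0.02 (-0.097 to 0.067, limma adjusted p 0.767), and EGR1OV and H/R differed by -0.18 (-0.26 to -0.10, limma adjusted p 0.00236), below 1.3-fold, and by -0.16 without those libraries (limma adjusted p 0.0689). The ratio of Smad3 to Smad7 was 1.94 ± 0.0336 in Sham, 1.60 ± 0.069 after H/R and 1.87 ± 0.0606 with EGR1OV (SD over n = 3), and each H/R library was below the 6 others.

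**Figure D3:**
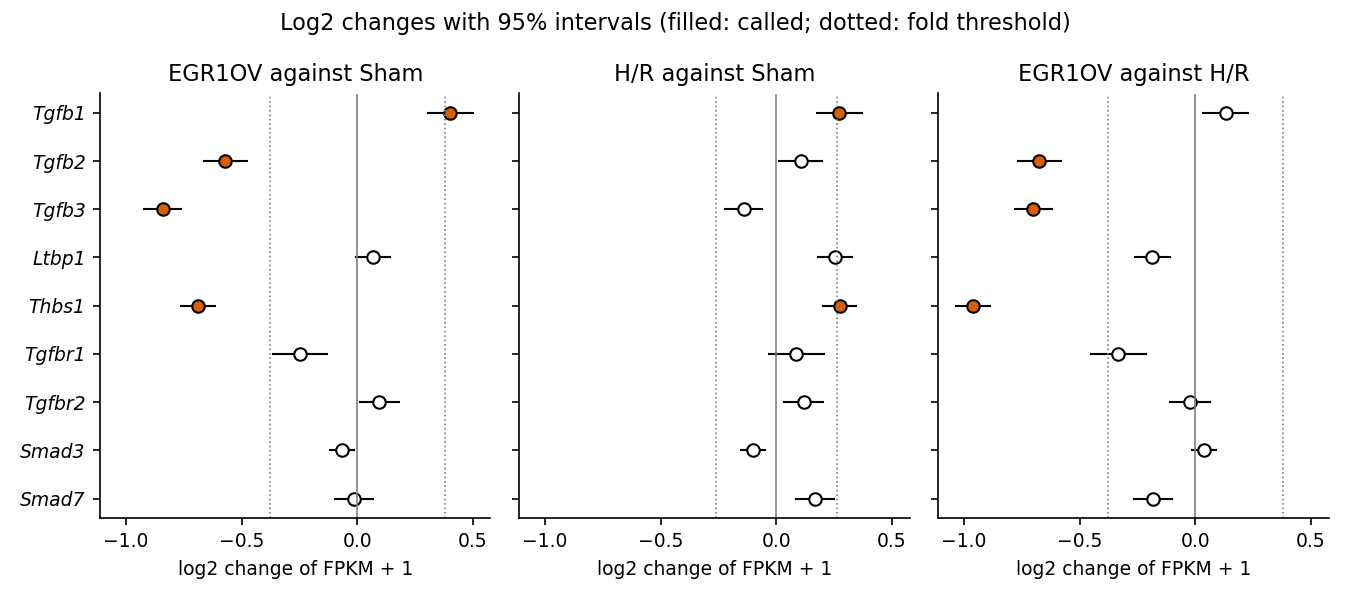
Log2 change of FPKM + 1 (horizontal axes) for the 9 genes in EGR1OV against Sham, H/R against Sham and EGR1OV against H/R, with 95% intervals. Filled points were called and dotted lines mark the fold threshold of each comparison. Tgfb2, Tgfb3 and Thbs1 lie between -0.96 and -0.57 in the comparisons of EGR1OV, and the intervals of Ltbp1 and Smad7 in EGR1OV against Sham and of Tgfbr1 in H/R against Sham include 0, as do those of Tgfbr2 and Smad3 in EGR1OV against H/R.

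None of the 6 other Smad genes was called by limma in EGR1OV or H/R against Sham, where 16.4% and 4.25% of all genes were called. With the adjusted p alone, 3 of them were higher in EGR1OV and 0 in H/R. By that measure 6417 and 1635 of all 13985 genes passed, in either direction. Smad2, the partner of Smad3, was at 19.5 ± 0.0884 FPKM in Sham, 20.01 ± 0.531 after H/R and 19.95 ± 0.589 in EGR1OV. Smad4, the shared partner, was at 28.2 ± 1.08, 28.4 ± 0.732 and 31.3 ± 1.06 FPKM (+0.14 in EGR1OV, limma adjusted p 0.0113, below the fold threshold).

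The 12 feedback genes and repressors likewise held no call against Sham. With the adjusted p alone, 5 were higher and 2 lower in EGR1OV and 2 were higher in H/R. Among all 13985 genes 6417 and 1635 passed in this way. The Smad repressor Ski was at 31.5 ± 0.687 FPKM in Sham, 34.3 ± 1.33 after H/R and 35.0 ± 0.606 in EGR1OV, and its relative Skil at 25.9 ± 0.998, 29.0 ± 1.17 and 29.0 ± 1.32. Pmepa1, a membrane protein that is induced by TGF-beta and sequesters Smads, was at 67.7 ± 1.77, 78.5 ± 2.27 and 59.5 ± 2.76 FPKM. Its values were +0.21 in H/R and -0.18 in EGR1OV, both below the thresholds, and it was lower in EGR1OV than in H/R by -0.39 (limma adjusted p 2.7e-05), which without the libraries high in Gm23935 was -0.35 (limma adjusted p 0.00601) and below the fold threshold. The medians of the list were 0.09 in EGR1OV and 0.05 in H/R.

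Genes known to respond to TGF-beta or used as its readouts were called in both directions. Of 24 tested, 3 were higher and 6 lower in EGR1OV (median log2 change 0.09), against 9.87% and 6.51% of all genes tested. In H/R 3 were higher and 0 lower, with a median of 0.11, against 1.6% and 2.65% of all genes. The 6 falls in EGR1OV were in Acta2, Tagln, Cdh2, Fn1, Col4a1 and Id2. Acta2, smooth muscle actin, fell by 1.38 from 2947 ± 63.7 to 1131 ± 38.9 FPKM. Tagln, the actin-binding transgelin, fell by 0.86 from 4.37 to 1.95, and Cdh2, N-cadherin, by 0.65 from 82.5 to 52.2. Outside the rule for named genes, the matrix genes Fn1, fibronectin, and Col4a1, a basement membrane collagen, fell by 0.62 from 2090 to 1364 FPKM and by 0.60 from 537 to 355 FPKM, and Id2, an inhibitor of DNA binding, fell by 0.41. The rises in EGR1OV were in Timp1, a metalloproteinase inhibitor (+0.58, from 96.3 to 144 FPKM), in the collagen gene Col1a2 (+0.45, from 7.22 to 10.2) and in Junb, an AP-1 factor (+0.38, from 103 to 135). In H/R Lox, which crosslinks collagen, rose by 0.38, Col1a2 by 0.32 and Col1a1 by 0.27. Without the libraries high in Gm23935 none of these 3 was called in H/R (limma adjusted p 0.0911, 0.133 and 0.452), and the 9 calls in EGR1OV were kept.

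Ctgf and Tgfbi, widely used readouts of TGF-beta signaling, were not called in either comparison with Sham. Ctgf, a matrix-associated growth factor, was at 859 ± 12.5 FPKM in Sham, 960 ± 33.9 after H/R and 742 ± 26.8 in EGR1OV (SD over n = 3), with log2 changes of +0.16 in H/R and -0.21 in EGR1OV, below the fold thresholds. Tgfbi, named for its induction by TGF-beta, was low throughout, at 1.89 ± 0.114, 1.74 ± 0.0542 and 1.43 ± 0.249 FPKM in the same order. Its EGR1OV value was -0.26 (limma adjusted p 0.0263), below the threshold on the log2(FPKM + 1) scale, with a ratio of means of 0.756. The H/R value was -0.08 (limma adjusted p 0.563).

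Among other ligands of the TGF-beta family, falls were seen in EGR1OV. Of 9 tested, 5 were lower and 0 higher, with a median of -0.38, against 6.51% lower and 9.87% higher among all genes tested. Bmp7, known to oppose TGF-beta in the kidney, fell by 1.24 from 6.56 ± 0.0854 to 2.204 ± 0.121 FPKM. Bmp2 fell by 0.80 from 2.51 to 1.01, and the activin subunit gene Inhbb by 0.53 from 6.20 to 3.98. Outside the rule for named genes, the other falls in EGR1OV were in Gdf11 (-0.44, from 7.99 to 5.63 FPKM) and Bmp4 (-0.38, from 9.02 to 6.72 FPKM). In H/R 1 was higher and 2 lower, with a median of -0.17, against 1.6% and 2.65% of all genes. Inhba, the subunit of activin A, rose by 0.65 from 174 ± 9.75 to 273 ± 9.41 FPKM, and Gdf11 and Gdf15 fell by 0.42 and 0.41. Without the libraries high in Gm23935 Gdf15 was still called (-0.49, limma adjusted p 0.0265), while Inhba (+0.58, limma adjusted p 0.0751) and Gdf11 (-0.35, limma adjusted p 0.133) were not. In EGR1OV Inhba was at 176 ± 14.7 FPKM (+0.01, limma adjusted p 0.883).

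Of 10 secreted binding proteins and antagonists, 6 were tested. With EGR1OV 1 was called higher and 2 lower, against 9.87% and 6.51% of all genes tested. For H/R the shares of all genes were 1.6% and 2.65%. In EGR1OV Grem1, a BMP antagonist, rose by 0.95 from 4.88 ± 1.104 to 10.2 ± 1.02 FPKM. Fst, the activin antagonist follistatin, fell by 0.93 from 85.6 ± 1.41 to 44.4 ± 1.87, and the BMP antagonist gene Nog fell by 0.62 from 4.40 to 2.51. In H/R Fst was the single call of this list and rose by 0.36 to 110 ± 5.64 FPKM, and without the libraries high in Gm23935 it was at +0.28 (limma adjusted p 0.12). The medians were -0.16 in EGR1OV and 0.07 in H/R.

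**Figure D4:**
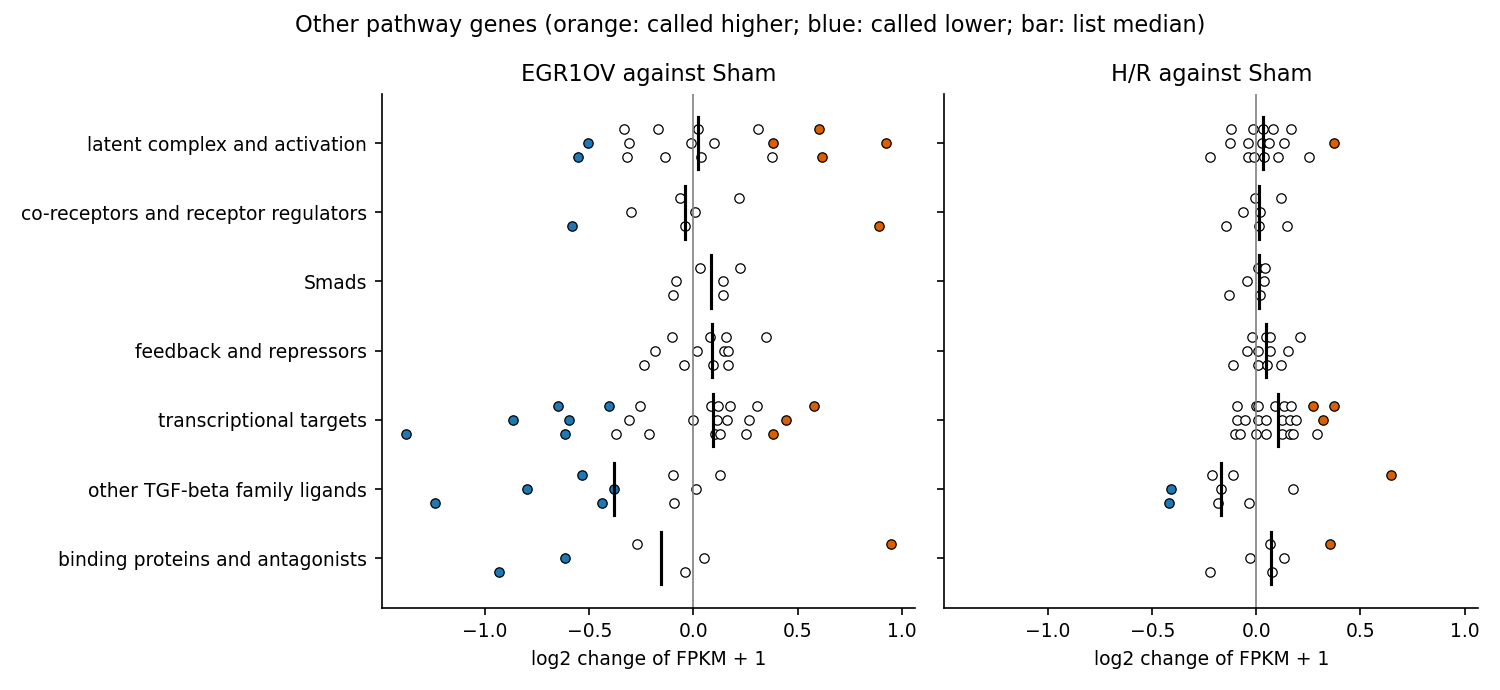
Log2 change of FPKM + 1 (horizontal axes) in EGR1OV and in H/R against Sham for the tested genes of 7 lists around the pathway. Each point is a gene, orange where called higher and blue where called lower, and the black bar is the median of the list. No Smad gene and no feedback gene is colored, and the ligand list has 5 blue points in EGR1OV, down to Bmp7 at -1.24.

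Genes with patterns like those of the 3 most variable TGF-beta genes were sought by Pearson's r of log2(FPKM + 1) over the 9 libraries, among 7588 genes that averaged 5 FPKM or more. The libraries fall into 3 groups, so r mainly follows the group means, and it is given as a description. Nearest to Thbs1 were Clcn5, a chloride-proton exchanger of endosomes (r = 0.998), and Fst (r = 0.998). Nearest to Tgfb3 were Tpm2, a tropomyosin (r = 0.998), and Myl6, a myosin light chain (r = 0.997). Nearest to Tgfb2 were Itgb1, the integrin beta-1 subunit (r = 0.997), and Cpe, carboxypeptidase E (r = 0.997). Such likeness was common, since 801, 721 and 837 genes had an r above 0.9 with Thbs1, Tgfb3 and Tgfb2.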

How the data were processed

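RNA-seq libraries of 9 samples (3 each of Sham, H/R and EGR1OV) were grouped by sample title. Per the file deposited by the authors, values are FPKM, 1 column for each library, with replicates kept apart. The submitters' processing notes name Bowtie2 2.2.3, HISAT2 2.1.0, TopHat2 and the build mm9 without a role. The counter and annotation are not given in the sources used here. GENCODE M21 (GRCm38) holds 99.8% of the identifiers, with the same position for 94.6% of genes, and the table's own coordinates were used. In 26 rows a symbol turned into a date was restored from the identifier.

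FPKM values are not counts, so they were tested as log2(FPKM + 1), a scale that understates the change of low genes. A single limma model (3.58.1, under R 4.3.3, eBayes with trend) was fitted to all 9 libraries, and two-sided p-values were adjusted by Benjamini-Hochberg over the 13985 genes that averaged 0.5 FPKM or more. Fold thresholds against Sham were those of the study, and that of 1.3-fold between the treated groups was set for this comparison. An exact two-sided permutation test of 3 against 3 libraries cannot go below 0.1. With exon lengths of GENCODE M21, low FPKM values gave whole reads within 0.02 for 94.0% of 162885 values of 1 to 1000 reads, and for Ltbp1 they did not. The member genes, the gene lists and the rule for named genes were chosen with earlier results of these data known. The rule took up to 3 called genes with the largest change per list and comparison with Sham, plus Smad2, Smad4, Tgfbr3, Skil, Ski, Pmepa1, Ctgf, Tgfbi and Ltbp3, and 1 further gene is not reported here. Alternatives were another pseudocount, filter, scaling, variance model, set of samples, fold threshold, replicate block, voom on recovered reads, and each library left out. The fit without the libraries high in Gm23935 and the sum of tubule markers without Krt8 and Krt18 were added after seeing the data. Code was tested on simulated data. Protein sequences were not analysed here.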

Additional observations from a re-analysis of the deposited data

Results flagged for a closer look

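In the direct limma comparison of EGR1OV with H/R, 3 of the 9 genes passed both the adjusted p and the 1.3-fold threshold, as did 18.9% of all genes. With the adjusted p alone 7 of the 9 did, 1 higher and 6 lower, as did 7135 of all 13985 genes, 62.7% of them higher. The log2 difference was -0.68 for Tgfb2 (adjusted p 1.1e-06), -0.70 for Tgfb3 (adjusted p 3.0e-07) and -0.96 for Thbs1 (adjusted p 1.5e-08), and the 3 EGR1OV libraries were below the 3 H/R libraries for each. For Thbs1 the treated groups lay on opposite sides of Sham, at -0.69 and +0.27. For Tgfb2 they were at -0.57 and +0.10, the latter not past the test, and for Tgfb3 at -0.84 and -0.14.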

How the results depend on the processing

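For single genes, 488 of 513 alternative values kept their direction and their side of the threshold, 8 changed sign, 7 newly passed and 10 no longer passed. Many of these values could not move in direction or size. Another filter, no trend in the variance, the replicate block and a fit of only the groups compared leave the log2 change as it is. So does leaving out a library of the group not compared. Such settings can change only the adjusted p, so the count of 488 overstates how firm the values are. The sign changes were in values that had not been called: Ltbp1 in EGR1OV against Sham (-0.0376 after quantile normalization), Smad3 in EGR1OV against H/R (-0.033 after median-ratio scaling, -0.0318 after quantile normalization), Smad7 in EGR1OV against Sham (-0.0358 to 0.0172 with 1 library left out, above 0 without EGR1OV replicate 3), and Tgfbr2 in EGR1OV against H/R (-0.0498 to 0.0146, above 0 without H/R replicate 3 or EGR1OV replicate 1). Without the 3 libraries above 10000 FPKM of Gm23935, Tgfbr2 in EGR1OV against H/R was 0.0353 and Tgfbr1 in H/R against Sham -0.0208. That fit leaves 1 H/R library, assumed to vary like the others. It called 0 of the 9 genes and 54 of all genes in H/R against Sham, and still 4 of the 9 in EGR1OV against Sham. With fewer genes tested (a mean of at least 5 FPKM), calls over all genes were 1315 in EGR1OV against Sham, 372 in H/R against Sham and 1520 in EGR1OV against H/R, from 2291, 594 and 2641. With no fold threshold they were 6417, 1635 and 7135, and 6, 6 and 7 of the 9 genes were called. Voom on recovered reads called 1001 genes in H/R against Sham. With 1 library left out, 1 to 2 of the 9 genes were called in H/R against Sham, with 1 left without Sham replicate 1, Sham replicate 3 or H/R replicate 3. In EGR1OV against Sham 3 to 4 were called, with 3 left without Sham replicate 1.

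Same-numbered libraries deviated together with r from -0.195 to 0.263, so the numbers were not taken as pairs. With the replicate block 2309, 516 and 2654 genes were called in EGR1OV against Sham, H/R against Sham and EGR1OV against H/R, and 4, 2 and 3 of the 9. With 3 libraries a group, changes near the fold thresholds are not resolved.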
